A study of Mus musculus with 10 samples.

Results

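The expression difference between Bcl10 knockout and heterozygous mouse keratinocytes after exposure to IL-17A was measured in 5 of the series' 10 RNA-seq libraries, across all 12054 expressed genes. The libraries were chosen by their labels alone: 2 labelled Bcl10-/- (knockout) and 3 labelled Bcl10+/- (heterozygous), all exposed to IL-17A. Both genotypes carry the allele Bcl10tm1Mak, so the heterozygous littermates, which served as controls, have 1 mutant copy themselves, and no wild-type cells were analysed here. The cells were primary keratinocytes from the skin of pups at postnatal day 4 to 5, kept on collagen in serum-free medium at 0.05 mM calcium chloride. They received 200 ng/mL of recombinant mouse IL-17A for 5 h, and the other 5 libraries, unstimulated cells of the same genotypes and numbers, are given beside them. Libraries that share genotype and number are called a culture, although the labels do not say whether a number stands for an animal, a litter or a well. The p-values therefore cover only the spread from library to library, part of which may be technical.

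BCL10 is a small adaptor protein. CARD-family proteins, in keratinocytes chiefly CARD10 and CARD14, nucleate BCL10 filaments that recruit MALT1, a paracaspase, and the assembled complex switches on NF-kB. IL-17A acts on keratinocytes through its receptor and the adaptor ACT1. It raises chemokines that attract neutrophils, cytokines and antimicrobial proteins, partly through NF-kB and its cofactor IkB-zeta and partly by stabilising messenger RNAs. The comparison asks which genes differ between cells with and without BCL10 when IL-17A is present.

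The 5 libraries were those of keratinocytes by their highest genes: Krt5, the basal keratin, was 4430 to 6369 FPKM (fragments scaled to transcript length and library size, the deposited unit), and Krt14, its partner, 3723 to 4990 FPKM. Depth was estimated at 15.7 to 50.02 M (mega) fragments, at which 3 fragments in a gene of 1 kb equal 0.05998 to 0.191 FPKM, and 11920 to 12079 genes reached 1 FPKM. Of 15 immune cell markers 13, Ptprc and Cd74 among them, were listed at 0 in all 5 libraries. The immune list summed to 6.75 FPKM in knockout culture 2, all of it Thy1, which fibroblasts also express, and to 0.337 to 1.26 FPKM elsewhere. The 12 fibroblast markers summed to 92.5 FPKM in knockout culture 2 and to 12.5 to 17.3 FPKM in the other 4 libraries, and Col1a1, a defining fibroblast collagen, was 10.6 FPKM there against 0 to 0.0619 FPKM. Among the unstimulated libraries, that of knockout culture 1 stood apart, with 12.6% of all FPKM in its 10 highest genes.

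Bcl10 (ENSMUSG00000028191, GRCm38 chr3:145922804-145934356, plus strand) did not separate the IL-17A-treated libraries by label. It was 16.4 and 16.6 FPKM in the libraries labelled knockout. Among those labelled heterozygous it was 16.3 FPKM in culture 1, 72.3 in culture 2 and 60.6 in culture 3. Heterozygous culture 1 therefore had the Bcl10 level of the knockout libraries, which goes against its label, and did so without IL-17A as well (18.0 FPKM). With all libraries the difference was log2 -1.29 (95% interval -3.48 to 0.90, adjusted p = 0.531). The labels do not state what the allele deletes, and reads from a transcript that remains cannot be told from normal ones. Every direction below rests on the labels, and calls are given for fits with and without heterozygous culture 1; with all libraries, 0 genes of any gene list described below passed.

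The partners of BCL10 were present in these cells. Malt1 was 4.62 and 4.67 FPKM in the knockout libraries, 5.04 in heterozygous culture 1, and 2.49 and 2.56 in heterozygous cultures 2 and 3. It did not pass with all libraries (log2 0.42, adjusted p = 0.512) and was higher in knockout without heterozygous culture 1 (log2 0.68, adjusted p = 0.0227). Card10 was 12.8 to 15.9 FPKM in the knockout libraries and heterozygous culture 1, and 7.08 and 9.55 FPKM in heterozygous cultures 2 and 3, and did not pass in either fit (adjusted p = 0.507 and 0.0619). Card14, the skin member of the family, was 2.28 to 2.79 FPKM with overlapping groups. Card9, which serves myeloid cells, was listed at 0 in all 5 libraries.

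With all libraries, 3 genes were lower in knockout than in heterozygous cells under IL-17A and 0 were higher (0.0249% and 0% of the genes tested, respectively, at an adjusted p under 0.05). They were Lsm12, an RNA-binding protein gene, Dusp3, a dual-specificity phosphatase gene, and Kbtbd4, a substrate adaptor of a ubiquitin ligase. All 3 were lower than in every heterozygous library, culture 1 included, and in unstimulated cells their differences were log2 0.12, -0.15 and 0.12.

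Lsm12 (ENSMUSG00000020922, GRCm38 chr11:102162497-102185296, minus strand) was 11.3 and 12.4 FPKM in the knockout libraries, and 31.6, 25.5 and 28.1 FPKM in heterozygous cultures 1, 2 and 3. The groups did not overlap, and the highest knockout value was below the lowest heterozygous one by more than the spread within either group (11.8 ± 0.831 against 28.4 ± 3.07 FPKM, SD, n = 2 and 3). On the log2(FPKM + 1) scale the difference was -1.19 (SE 0.11, 2.28-fold lower, limma adjusted p = 0.0226). In unstimulated cells Lsm12 was 30.1 and 31.1 FPKM in knockout and 27.2 to 28.9 FPKM in heterozygous libraries. In bulk RNA, fewer cells that express a gene and less RNA per cell cannot be told apart, here and in all that follows.

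Dusp3 (ENSMUSG00000003518, GRCm38 chr11:101971143-101987013, minus strand) was 4.90 and 5.32 FPKM in knockout, and 10.7, 10.2 and 12.0 FPKM in heterozygous cultures 1, 2 and 3. The groups did not overlap, and the difference was log2 -0.97 (SE 0.10, 1.96-fold lower, adjusted p = 0.0249). Unstimulated values were 9.70 and 10.2 FPKM in knockout and 10.6 to 11.4 FPKM in heterozygous libraries, so that the 2 low values were those of the IL-17A-treated knockout libraries. Dusp3 and Lsm12 lie on the same strand of chromosome 11, with starts 191 kb apart. The other 5 tested genes in that stretch and 100 kb to either side (Rpl27-ps2, Gm11585, Tmem101, G6pc3 and BC030867) differed by log2 -0.47 to 0.38, and 0 of them passed.

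Kbtbd4 (ENSMUSG00000005505, GRCm38 chr2:90904740-90911626, plus strand) was 2.34 and 2.16 FPKM in knockout, and 4.80, 5.29 and 4.73 FPKM in heterozygous cultures 1, 2 and 3 (log2 -0.87, SE 0.09, 1.83-fold lower, adjusted p = 0.0249). Its groups did not overlap either, and its unstimulated values were 5.14 and 5.20 FPKM in knockout and 4.50 to 4.84 in heterozygous libraries. These 3 calls held without both libraries of heterozygous culture 1 (adjusted p = 0.00612, 0.0109 and 0.0119 for Lsm12, Dusp3 and Kbtbd4). With the set of library numbers as a term, Lsm12 and Dusp3 held (0.00921 and 0.0490) and Kbtbd4 did not (0.0522). None of the 3 passed when the IL-17A library of heterozygous culture 3 was left out (0.156 each), nor that of knockout culture 1 (0.0790 to 0.110), nor any 1 of the 5 unstimulated libraries (0.0589 to 0.121). The same held with TPM scaling (0.0913 each) and with only the IL-17A libraries in the fit (0.598 each), and all 3 kept their direction. When the IL-17A library of knockout culture 2, or of heterozygous culture 1 or 2, was left out, Lsm12 alone passed.

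Whether these differences were larger with IL-17A than without was tested directly, as the difference of the 2 genotype differences. None of 12054 genes passed in limma with all libraries (smallest adjusted p = 0.105). An unadjusted p under 0.05 was found for 143 genes, where about 603 would have it if no gene differed. The fit took the treated and untreated libraries of a culture as independent, although their estimated correlation was 0.67. Its 0 calls therefore do not show that the genotype differences were equal in both conditions. The difference between conditions and its adjusted p were, in this fit, those of Lsm12 (log2 -1.31, adjusted p = 0.105), Uck1 (-1.26, 0.105), Kbtbd4 (-0.99, 0.137), Dusp3 (-0.82, 0.660) and Cox20b (-1.23, 0.804). With culture as a random effect 745 genes had an unadjusted p under 0.05 in limma. In that fit 5 genes passed, among them Lsm12, Uck1 and Kbtbd4 (0.00282 each), Dusp3 (0.0167) and Cox20b (0.0236).

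Uck1, a uridine-cytidine kinase gene, and Tagln, the actin-binding protein transgelin, had the next smallest p-values and did not pass. Uck1 (chr2:32255002-32260159) was 3.69 and 3.52 FPKM in knockout and 6.57, 6.80 and 6.53 FPKM in heterozygous cultures 1, 2 and 3 (log2 -0.73, adjusted p = 0.194). In unstimulated cells its order was the opposite, with 6.48 and 7.14 FPKM in knockout and 4.00 to 5.06 FPKM in heterozygous libraries. Tagln (chr9:45929619-45936058) was 12.0 and 13.7 FPKM in knockout and 4.53, 6.01 and 4.01 FPKM in heterozygous cultures 1, 2 and 3 (log2 1.25, adjusted p = 0.194). Its unstimulated values were nearly the same, 11.3 and 12.2 FPKM in knockout and 3.84 to 5.82 FPKM in heterozygous libraries. Its 12.0 FPKM came from knockout culture 1, where fibroblast markers summed to 13.1 FPKM, and its 13.7 FPKM from culture 2, where they summed to 92.5 FPKM.

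**Figure D1:**
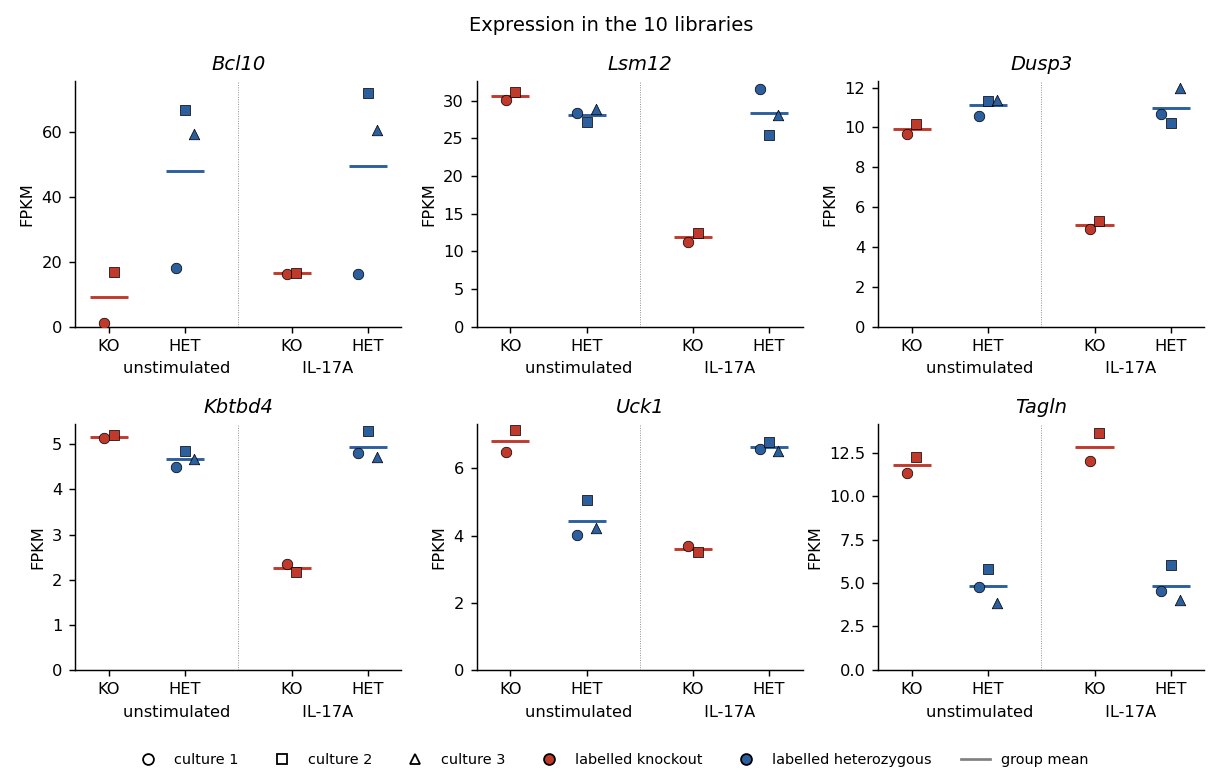
FPKM (vertical axes, from 0) of 6 genes in the 10 libraries, unstimulated on the left and IL-17A-treated on the right of each panel; points are libraries, shapes are culture numbers and bars are group means. Bcl10 of heterozygous culture 1 sits with the knockout libraries at 16.3 FPKM, while Lsm12, Dusp3 and Kbtbd4 are low in the 2 IL-17A-treated knockout libraries only.

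Further genes with small p-values stayed far from the threshold with all libraries (adjusted p = 0.507 each). On the higher side these were Msrb2, a methionine sulfoxide reductase gene, Sncg, Sorcs2, Arntl2, Tmem231, Rab4b, Gm12070, the lysosomal enzyme Gusb and the chaperone Hsph1. On the lower side they were the natriuretic peptide gene Nppb, the haem oxygenase Hmox1, N4bp2l2, Snord49a, Gm12543 and Ube2nl. Hsph1 was 44.9 and 39.8 FPKM in knockout and 27.7, 22.997 and 20.6 FPKM in heterozygous cultures 1, 2 and 3. Nppb was 40.02 and 40.7 FPKM in knockout and 61.2, 74.7 and 59.7 FPKM. For both, heterozygous culture 1 lay with the other heterozygous cultures and the groups did not overlap. Over all genes the groups did not overlap for 1778 genes higher in knockout (14.8%) and 1659 lower (13.8%). Of the 10 ways to choose 2 of the 5 libraries, 1 takes the 2 highest values of a gene and 1 the 2 lowest. A lack of overlap is therefore weak by itself, here and for the genes above and below. An unadjusted limma p under 0.05 was found for 981 genes, where about 603 would have it if no gene differed.

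Heterozygous culture 1 lay beside the knockout libraries across the transcriptome. The first principal component of the 5 libraries held 52.4% of the variance and placed the knockout libraries at -16.8 and -17.7, heterozygous culture 1 at -17.1, and heterozygous cultures 2 and 3 at 36.2 and 15.4. Without both libraries of heterozygous culture 1, 462 genes were higher (3.83%) and 346 lower (2.87%) in knockout under IL-17A, 808 in all (6.7%). This omission was chosen after the data had been seen. Where that culture lay near the knockout libraries, leaving it out widens the group difference by itself. The calls and adjusted p-values without it, here and below, are therefore descriptive. The library left out was nearer to the knockout mean than to that of heterozygous cultures 2 and 3 in 432 of the 462 (93.5%) and in 307 of the 346 (88.7%), against 73.0% of all tested genes. The median log2 difference of these called genes was 0.68 and -0.69 without the culture, 0.49 and -0.49 with all libraries, and 0.11 and -0.11 with the library number set as a term. By the labels' library numbers, heterozygous culture 1 falls with the knockout libraries (1 to 14), apart from the remaining heterozygous ones (33 to 38). In the comparison without heterozygous culture 1, genotype, Bcl10 level and number set therefore cannot be told apart.

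**Figure D2:**
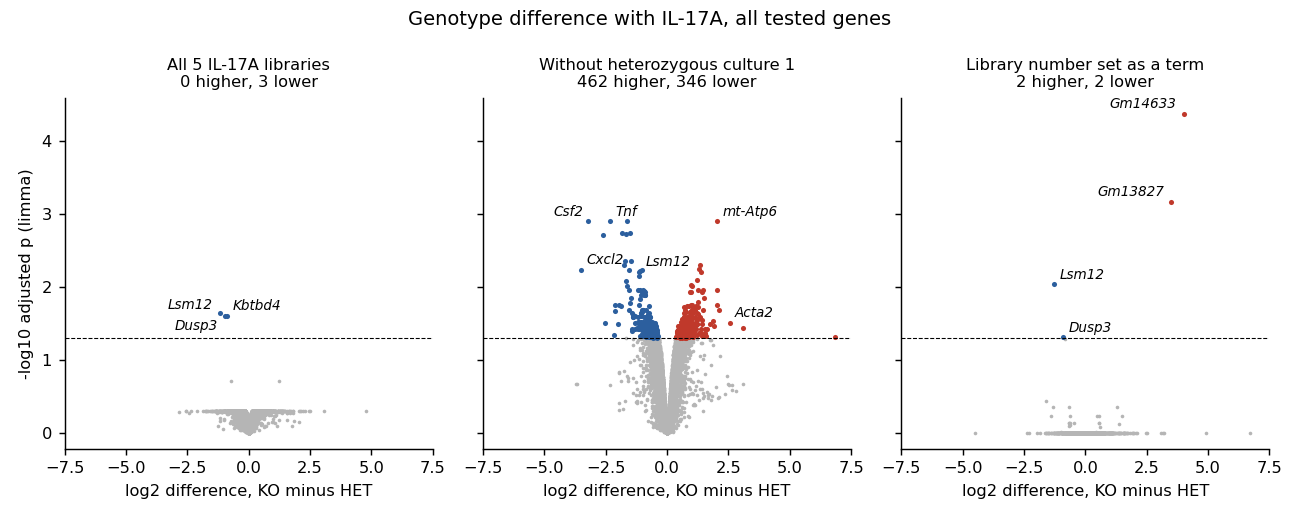
Log2 difference (knockout minus heterozygous, IL-17A, horizontal) against -log10 of the limma adjusted p (vertical, dashed line at 0.05) for 12054 genes in 3 fits; each point is a gene, red if higher and blue if lower in knockout past the threshold. The calls number 0 higher and 3 lower with all libraries, 462 and 346 without heterozygous culture 1, and 2 and 2 with the library number set as a term.

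The 808 calls without heterozygous culture 1 rest on 2 libraries a group. Between 8 and 892 genes were higher and between 25 and 810 lower when 1 more library was left out, with the lowest counts when the IL-17A library of knockout culture 1 (8 higher) or heterozygous culture 2 (25 lower) was omitted. Of the 808, 19 were kept under each such omission, among them the cytokine genes Csf2, Tnf and Il23a, the chemokine Cxcl2, the vasoconstrictor peptide gene Edn1, the matrix gene Fn1, mt-Atp6 and Lsm12. Csf2, Tnf, mt-Atp6, the sodium pump subunit Atp1b1 and the amino acid transporter Slc6a14 were called in every setting tried for this comparison. Atp1b1 was 8.49 and 7.66 FPKM in knockout, 9.85 in heterozygous culture 1, and 26.5 and 27.0 in heterozygous cultures 2 and 3. In unstimulated cells the same omission gave 46 genes higher (0.382%) and 80 lower (0.664%), and the genes called higher and lower under IL-17A had medians of 0.50 and -0.55 there.

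Chemokines were the list with the lowest median. The 10 tested had a median log2 difference of -1.31 without heterozygous culture 1 and -1.04 with all libraries, against -0.02 and -0.01 over all tested genes. Of these 10, 5 were lower and 0 higher without the culture, where 2.87% and 3.83% of all genes were, and 0 passed with all libraries. The lower ones included Cxcl1, Cxcl2 and Cxcl3, ligands of the neutrophil receptor CXCR2 that lie close together on chromosome 5, Ccl20, which attracts CCR6-bearing T cells and dendritic cells, and Cxcl16. Cxcl1 to Cxcl3 and Ccl20 are shown by promoter because each holds the NF-kB consensus, a motif of 10 bases, on at least 1 strand. The stretches are from 150 to 31 bases before the RefSeq start (build GRCm38.p6, plus strand), and capitals mark the motif. The motif was searched by its letters on both strands, with overlapping matches merged. It was found in 1199 of 32851 RefSeq promoters in that window (3.65%), and the promoters of Tnf and Icam1 held none there. Those of Cxcl16 and the other called genes were not looked at singly. Because the stretches shown were picked for holding the motif, they cannot be weighed against the 3.65%.
Cxcl1 (chr5:90891095-90891214): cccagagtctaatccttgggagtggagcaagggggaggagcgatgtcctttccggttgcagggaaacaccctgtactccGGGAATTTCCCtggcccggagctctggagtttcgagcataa
Cxcl2 (chr5:90903749-90903868): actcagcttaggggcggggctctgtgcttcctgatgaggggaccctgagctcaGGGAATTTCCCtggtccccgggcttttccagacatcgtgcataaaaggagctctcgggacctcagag
Cxcl3 (chr5:90785951-90786070): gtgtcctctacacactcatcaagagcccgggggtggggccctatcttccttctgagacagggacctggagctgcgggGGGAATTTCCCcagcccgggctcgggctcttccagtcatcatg
Ccl20 (chr1:83116616-83116735): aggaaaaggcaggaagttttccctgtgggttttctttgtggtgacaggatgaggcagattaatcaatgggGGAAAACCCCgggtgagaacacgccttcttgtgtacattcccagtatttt
The 3 Cxcl promoters share the same 2 overlapping matches, 1 on each strand, and that of Ccl20 lies on the minus strand. A match in letters is a description and was not tested for binding.

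For Cxcl1, Cxcl2, Cxcl3 and Ccl20 both knockout libraries were the lowest under IL-17A. Cxcl1 was 506 and 618 FPKM in knockout, 985 in heterozygous culture 1, and 1898 and 1449 in heterozygous cultures 2 and 3 (2.96-fold lower without culture 1, log2 -1.57, SE 0.16, adjusted p = 0.0109). Cxcl2 was 9.53 and 15.7 FPKM in knockout, 20.2 in heterozygous culture 1, and 193 and 117 in cultures 2 and 3 (11.4-fold lower, log2 -3.51, adjusted p = 0.00584). Cxcl3 was 6.71 and 13.2 FPKM, then 24.4, and 43.1 and 46.4 FPKM in the same order (4.37-fold lower, adjusted p = 0.0212). Heterozygous culture 1 lay above both knockout libraries and below both other heterozygous libraries for all 3, and for Ccl20 (0.735 and 1.97, then 2.38, and 7.60 and 7.84 FPKM). In unstimulated cells heterozygous culture 1 was not above the knockout libraries for Cxcl2, at 8.05 and 9.25 FPKM in knockout, 5.90 in heterozygous culture 1, and 91.3 and 70.6 in cultures 2 and 3. With all libraries these 4 differences were log2 -1.32, -2.56, -1.84 and -1.49 and did not pass (adjusted p = 0.507 each).

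Cytokines and growth factors followed, with 7 of 17 tested lower (2.87% over all genes) and 0 higher in knockout without heterozygous culture 1 (median -0.40, and -0.33 with all libraries, where 0 passed). Csf2, which encodes GM-CSF, was 1.28 and 2.12 FPKM in knockout, 5.31 in heterozygous culture 1, and 23.1 and 24.0 in cultures 2 and 3 (9.22-fold lower without culture 1, log2 -3.20, SE 0.17, adjusted p = 0.00126). Tnf was 4.45 and 4.46 FPKM in knockout, 7.35 in heterozygous culture 1, and 29.7 and 23.7 in cultures 2 and 3 (5.05-fold lower, adjusted p = 0.00126). Both knockout libraries were the lowest, and in FPKM heterozygous culture 1 was nearer to them than to its own group. Il23a, the specific subunit of IL-23, was 4.15 and 5.27 FPKM, then 6.62, and 18.6 and 18.0 FPKM in the same order (log2 -1.77, adjusted p = 0.00502). Il1f6, which encodes IL-36 alpha, was 4.32 and 4.89, then 6.67, and 22.4 and 17.1 FPKM (3.67-fold lower, adjusted p = 0.0185). In unstimulated cells without heterozygous culture 1, Csf2, Tnf, Il23a and Il1f6 differed by log2 -3.22, -2.05, -2.001 and -1.87, against -3.20, -2.34, -1.77 and -1.88 with IL-17A, and the difference between conditions did not pass for any of them (adjusted p = 1.00 each). That test took the libraries of a culture as independent, so it does not show that the genotype differences were equal in both conditions.

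Among 25 tested regulators that are targets of NF-kB or IL-17, 8 were lower (2.87% over all genes) and 0 higher in knockout without heterozygous culture 1 (median -0.29, and -0.25 with all libraries, where 0 passed). They included feedback inhibitors of NF-kB. Tnfaip3, the ubiquitin-editing enzyme A20, was 2.28 and 3.52 FPKM in knockout, 6.89 in heterozygous culture 1, and 9.27 and 10.2 in cultures 2 and 3 (2.79-fold lower, adjusted p = 0.0140). Nfkbia, the inhibitor IkB-alpha, was 91.8 and 90.6 FPKM, then 101, and 183 and 151 FPKM (1.81-fold lower, adjusted p = 0.0208). The adhesion molecule gene Icam1 was 16.9 and 17.4 FPKM, then 20.7, and 34.8 and 33.3 FPKM (1.93-fold lower, adjusted p = 0.0119). Heterozygous culture 1 was nearest to the knockout libraries for Nfkbia and Icam1 and nearer to its own group for Tnfaip3. Birc3, an inhibitor of apoptosis, was also among the 4 with the largest differences (log2 -0.94, adjusted p = 0.0310).

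These counts depended on single libraries. When the IL-17A library of knockout culture 1 was omitted, 2 of 10 chemokines, 3 of 17 cytokines and 0 of the 25 regulators were lower. When that of heterozygous culture 2 was omitted, the numbers were 3, 3 and 0.

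3 genes known as IL-17A targets, chosen after their values were seen, gave nearly equal values in both genotypes, unlike the targets above. Sprr2e, a cornified envelope precursor, was 20.9 and 21.3 FPKM in knockout and 21.7, 19.96 and 21.6 FPKM in heterozygous cultures 1, 2 and 3, a difference of log2 0.00 (95% interval -0.27 to 0.28). Nfkbiz, which encodes IkB-zeta, was 48.9 and 49.1 FPKM in knockout and 55.0, 40.7 and 49.99 FPKM in heterozygous libraries (log2 0.02, 95% interval -0.33 to 0.38). S100a9, a calprotectin subunit, was 37.6 and 48.9 FPKM against 49.4, 41.7 and 41.9 FPKM (log2 -0.04, 95% interval -0.47 to 0.38). The groups overlapped for all 3, and differences inside those intervals cannot be told from 0. The intervals do not give the size of difference that would pass after adjustment over all genes. Of 6 tested antimicrobial and acute-phase genes, 0 passed in either fit, and the smallest p was that of S100a7a (log2 -0.95, adjusted p = 0.507, and -1.12, 0.0724 without heterozygous culture 1). Of 19 genes of proximal IL-17 receptor signalling, 1 was lower without heterozygous culture 1, the kinase gene Ikbke (log2 -0.76, adjusted p = 0.0320), and the median of the list was -0.01. Over all genes 2.87% were lower and 3.83% higher in that fit. In the list of the CARD-BCL10-MALT1 complex and MALT1 substrates, of 14 tested, Malt1 was higher and the substrate genes Tnfaip3 and Relb (log2 -0.72, adjusted p = 0.0272) were lower.

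**Figure D3:**
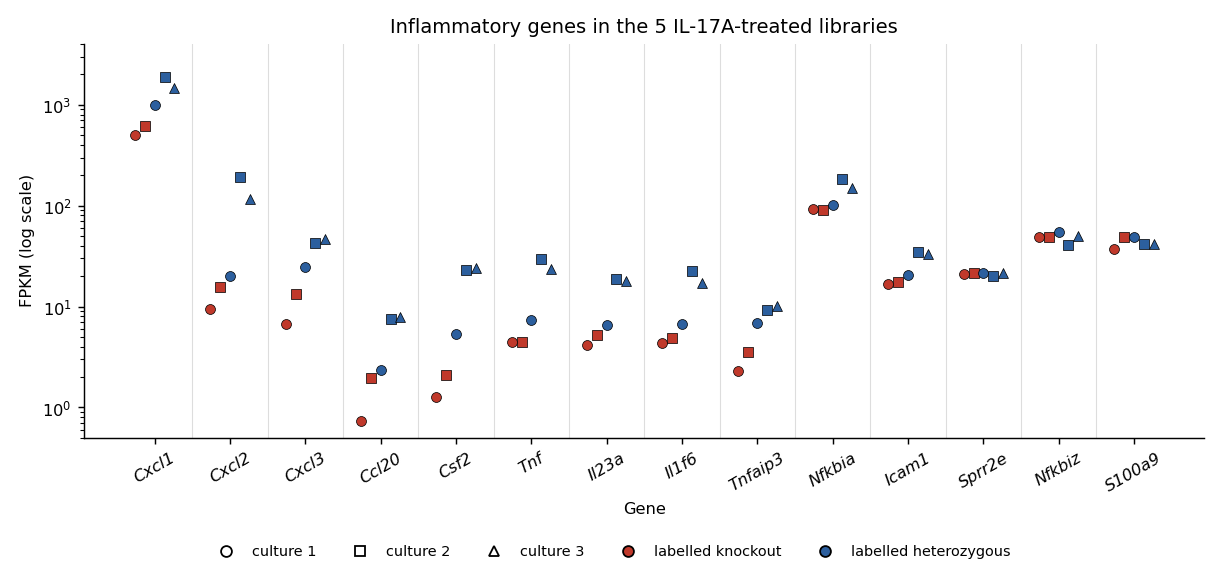
FPKM (vertical, log scale) of 14 inflammatory genes in the 5 IL-17A-treated libraries; colours are the labelled genotype and shapes the culture number. From Cxcl1 to Icam1 the knockout libraries are lowest and heterozygous culture 1 lies between them and heterozygous cultures 2 and 3, while Sprr2e, Nfkbiz and S100a9 overlap, as with 19.96 to 21.7 FPKM for Sprr2e.

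Contractile and matrix genes had the highest median among the lists that do not mark a cell type. Of 22 tested, 21 were above 0 with all libraries (median 0.74, 0 past the threshold), as were 5853 of all 12054 genes. Without heterozygous culture 1, 10 were higher and 1, the activin subunit Inhba, was lower (median 0.91). Over all genes 3.83% were higher and 2.87% lower in that fit. Acta2, smooth muscle actin, was 59.8 and 27.9 FPKM in knockout, 20.2 in heterozygous culture 1, and 4.99 and 7.49 in cultures 2 and 3 (5.88-fold higher without culture 1, log2 2.56, SE 0.42, adjusted p = 0.0310). The matrix glycoprotein Fn1 was 19.0 and 17.15 FPKM, then 12.2, and 6.13 and 6.71 FPKM (2.57-fold higher, adjusted p = 0.00502). For both the groups as labelled did not overlap, and heterozygous culture 1 lay between. Myl9 (log2 1.57, adjusted p = 0.0473) and Tnc (1.44, 0.0281) were also higher. In unstimulated cells Acta2 and Fn1 differed by log2 2.63 and 1.39 without heterozygous culture 1. All 6 tested fibroblast markers were also above 0 with all libraries (median 1.53), 5 of them with groups that did not overlap (14.8% over all genes), and 0 passed. Their sum was high in knockout culture 2 alone. Acta2, Myl9 and Fn1 were higher in knockout culture 1 than in culture 2, but the median of the 22 contractile and matrix genes went the other way. Without heterozygous culture 1, that median was log2 1.02 with only knockout culture 2 kept under IL-17A. It was 0.66 with only knockout culture 1 kept. The part of fibroblast RNA in the contractile and matrix differences was not tested further. The number of contractile and matrix genes called higher was 1 to 9 when 1 more library was left out, and it was 1 when the omitted one was the IL-17A library of either knockout culture or of heterozygous culture 2.

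Basal keratinocyte and hemidesmosome genes, of which 19 were tested, had 5 higher and 1 lower in knockout without heterozygous culture 1 (3.83% and 2.87% over all genes). The count of higher ones was 0 to 8 when 1 more library was omitted, and 0 for any knockout library or the IL-17A library of heterozygous culture 2. Dst, the plakin that ties keratin to the hemidesmosome, was 32.0 and 32.9 FPKM in knockout, 31.7 in heterozygous culture 1, and 11.4 and 15.5 in cultures 2 and 3 (log2 1.23, adjusted p = 0.0227). Itgb4, the integrin beta chain of the hemidesmosome (1.01, 0.0358), and the Notch ligand family gene Dlk2 (0.87, 0.0259) were also higher, and Igfbp3 was lower (-1.19, 0.0259). Terminal differentiation genes had 4 of 25 higher, among them the desmosome component Cdsn (log2 0.98, adjusted p = 0.0119), the protease inhibitor Spink5 (0.91, 0.0363) and the lipoxygenase Alox12b (0.66, 0.0475), and the ceramide synthase Cers3 was lower (-0.62, 0.0429). Cdsn, Spink5 and Alox12b were at least as high in heterozygous culture 1 as in both knockout libraries, and with the library number set as a term their differences were -0.14, -0.05 and -0.12. In that fit 24 of the 25 differentiation genes were below 0 (median -0.20, against 0.36 without heterozygous culture 1), and 0 passed. The count of 4 was 0 to 5 when 1 more library was omitted, with 0 for the IL-17A library of knockout culture 1 or heterozygous culture 2. Among 25 wound and stress genes, Sprr2a3 (1.55, 0.0460) and Stfa1 (1.25, 0.0237) were higher and Serpinb2 (-1.02, 0.0222) was lower.

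Of 16 matrix proteases and plasminogen activator genes, 3 were higher and 2 lower without heterozygous culture 1 (3.83% and 2.87% over all genes, respectively). The counts were 0 to 3 and 0 to 2 when 1 more library was omitted. They were 0 higher for the IL-17A library of knockout culture 2 or heterozygous culture 2, and 0 lower for that of either knockout culture. The matrix metalloprotease gene Mmp1b was 1.00 and 1.01 FPKM in knockout, 0.971 in heterozygous culture 1, and 2.96 and 3.56 in cultures 2 and 3 (log2 -1.08, adjusted p = 0.0128 without culture 1). The gelatinase Mmp9 was 2.52 and 1.64 FPKM, then 0.533, and 8.50 and 14.4 FPKM (log2 -1.99, adjusted p = 0.0320). Serpine2, a serine protease inhibitor, was higher (log2 1.04, adjusted p = 0.00989). For Mmp9, heterozygous culture 1 had the lowest value of the 5 libraries, so with the library number set as a term the difference was 1.06.

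Genes of the unfolded protein response mostly had lower values in knockout. Of 20 tested, 19 were below 0 with all libraries (median -0.25, 0 passed), as were 6201 of all 12054 genes. Without heterozygous culture 1, 5 were lower (median -0.34), against 2.87% of all genes. Hspa5, the chaperone BiP, was 185 and 301 FPKM in knockout, 284 in heterozygous culture 1, and 489 and 477 in cultures 2 and 3 (log2 -1.03, adjusted p = 0.0475). The transcription factor gene Atf4 was 186 and 224 FPKM, then 256, and 432 and 351 FPKM (log2 -0.93, adjusted p = 0.0310). Trib3 (-0.98, 0.0305) and the co-chaperone Dnajb9 (-0.88, 0.0414) were also lower. The count was 0 to 5 when 1 more library was left out, with 0 when the omitted one was the IL-17A library of either knockout culture or of heterozygous culture 2.

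The mitochondrially encoded subunit mt-Atp6 was 945 and 1098 FPKM in knockout, 1220 in heterozygous culture 1, and 245 and 249 in cultures 2 and 3 (4.11-fold higher without culture 1, log2 2.04, SE 0.11, adjusted p = 0.00126). It was 1 of 2 mitochondrially encoded genes called higher among 15 (3.83% over all genes). The other was mt-Atp8 (log2 0.67, adjusted p = 0.0394), whose reading frame overlaps that of mt-Atp6. All mitochondrially encoded genes together held 1.67% and 1.93% of FPKM in knockout, 2.07% in heterozygous culture 1, and 1.11% and 1.26% in cultures 2 and 3. Nuclear-encoded respiratory chain genes had 0 of 29 called (median -0.21).

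Melanocytes can be carried along in keratinocyte cultures. Of 10 tested melanocyte markers, 3 were lower in knockout without heterozygous culture 1 (2.87% over all genes). These were Mlana (log2 -1.44, adjusted p = 0.0404), Dct (-1.10, 0.0475) and Pmel (-0.90, 0.0260), all pigment cell genes. The count was 0 when the IL-17A library of either knockout culture or of heterozygous culture 2, or the unstimulated library of either knockout culture, was also omitted. The 10 markers summed to 190 and 177 FPKM in knockout, 199 in heterozygous culture 1, and 423 and 340 in cultures 2 and 3 (exact permutation test over all 5 libraries, two-sided, p = 0.2, where 0.1 is the smallest possible). Like the sum, Csf2, Tnf and Cxcl2 were highest in heterozygous cultures 2 and 3, and the part of melanocyte RNA in their differences was not tested. Of the keratinocyte markers, Epcam was lower (-0.93, 0.0263) and Dsp higher (0.76, 0.0345), and 7 of 9 were not called. Over all genes 2.87% were lower and 3.83% higher in that fit. Neither marker was called when the IL-17A library of either knockout culture or of heterozygous culture 2 was also omitted. With the library number set as a term, the difference of Epcam was 0.29. Krt8, a simple-epithelium keratin, was higher without heterozygous culture 1 (1.16, 0.0373).

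**Figure D4:**
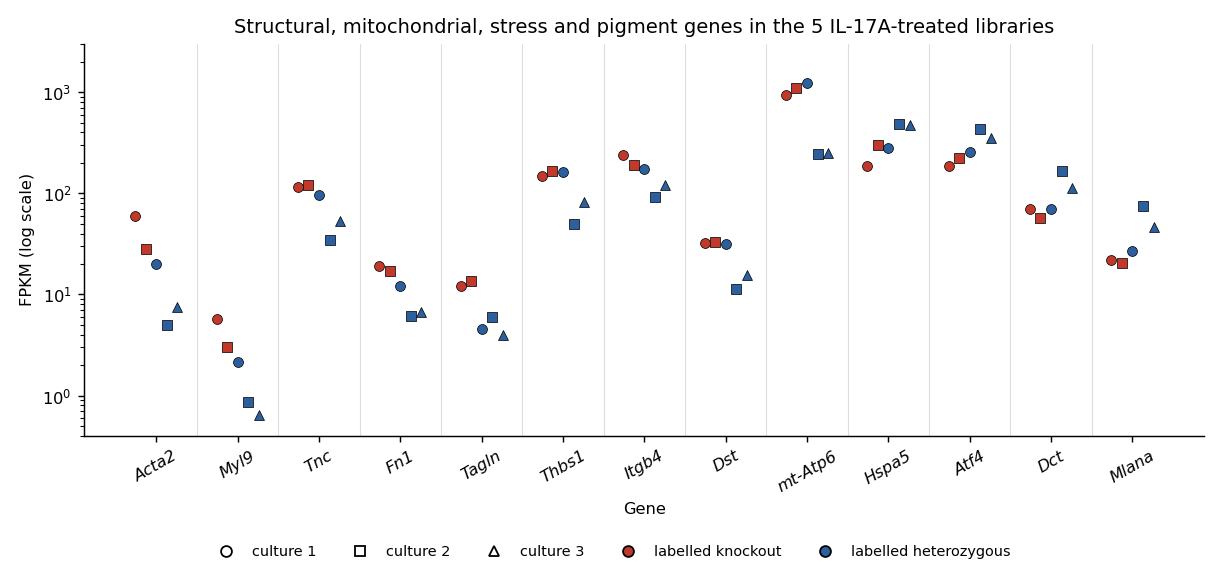
FPKM (vertical, log scale) of 13 structural, mitochondrial, stress and pigment genes in the 5 IL-17A-treated libraries, with colours and shapes for genotype and culture. Acta2 to Itgb4 are highest in the knockout libraries or level with heterozygous culture 1, mt-Atp6 is 945 to 1220 FPKM in 3 libraries and 245 and 249 in 2, and Hspa5 to Mlana are highest in heterozygous cultures 2 and 3.

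Further groups held 1 to 3 calls each without heterozygous culture 1, where 3.83% of all genes were higher and 2.87% lower. Of 18 NRF2 targets, Osgin1 was higher (log2 1.29, adjusted p = 0.00564) and Nqo1 (-0.80, 0.0305) and Hmox1 (-0.65, 0.0460) lower. Of 22 immediate early and AP-1 genes, Fosl1 (0.47, 0.0427) and Jun (0.40, 0.0468) were higher, and 0 were when any 1 more library other than the IL-17A library of heterozygous culture 3 was omitted. Of 26 sterol and fatty acid synthesis genes 1 was higher, the fatty acid synthase Fasn (1.05, 0.0492), a share near the 3.83% of all genes, while 23 were above 0 with all libraries (median 0.34, and 0.07 with the library number set as a term). The count was 12 when the IL-17A library of heterozygous culture 3 was also omitted. Egln3, an oxygen-sensing hydroxylase, was the 1 called of 23 hypoxia and glycolysis genes (1.55, 0.0377), and the ligand Nrg1 the 1 of 10 EGF receptor genes (0.67, 0.0464). Of 18 p53 targets, Zmat3 was higher (0.50, 0.0404) and Gadd45a lower (-1.22, 0.0363). Of 26 tested genes that start within 5 Mb of Bcl10, Mcoln3 (-1.40, 0.0259) and Rpsa-ps10 (-1.05, 0.0227) were lower, and the list's median was -0.05. The count of 2 was 6 when the IL-17A library of heterozygous culture 3 was also omitted, and 0 for any knockout library or the IL-17A library of heterozygous culture 2.

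**Figure D5:**
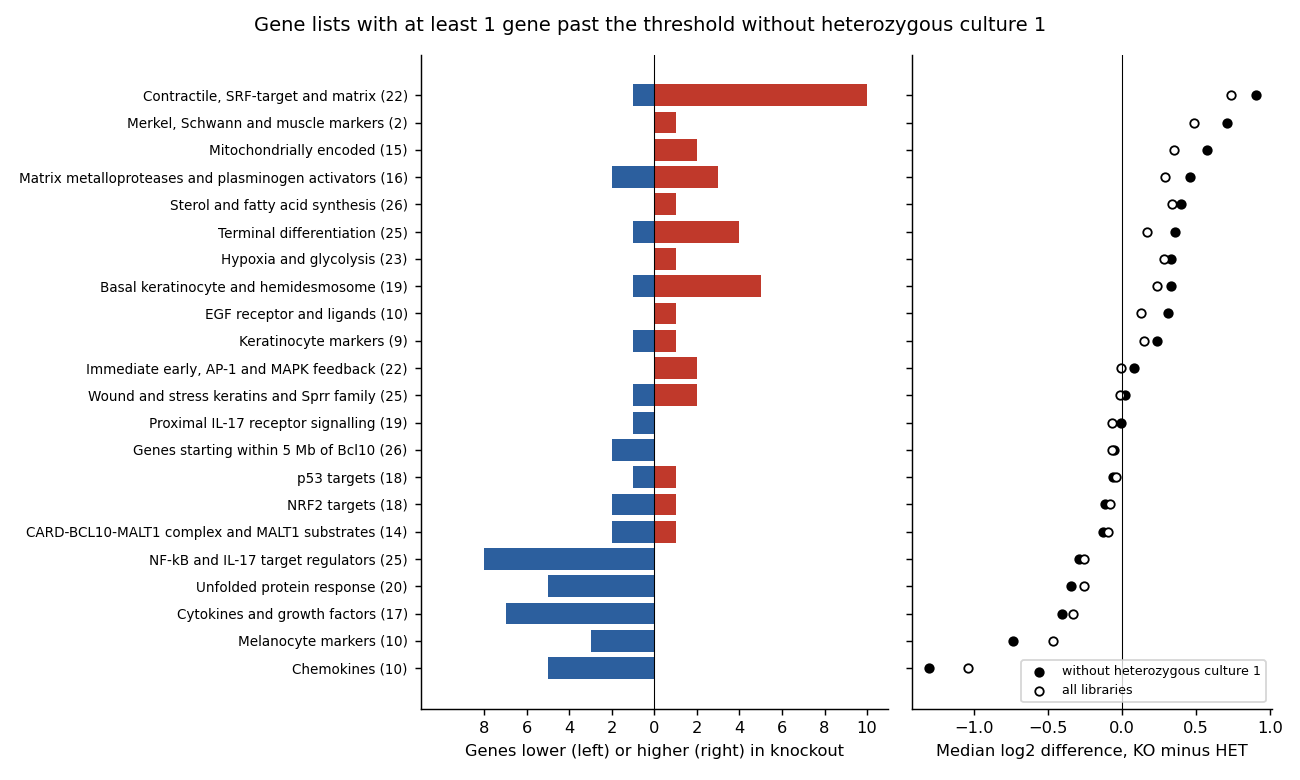
Left, number of genes past the threshold in each gene list without heterozygous culture 1 (bars to the left are lower and to the right higher in knockout under IL-17A; number tested in brackets). Right, median log2 difference of each list without that culture (filled) and with all libraries (open); contractile and matrix genes reach 0.91 and chemokines -1.31.

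Several groups held no call in either fit. These were 36 cell cycle genes (median 0.09 without heterozygous culture 1), with the smallest p for Ccne1 (log2 0.39, adjusted p = 0.0501) and 6 higher when the IL-17A library of heterozygous culture 3 was also omitted, 9 interferon-stimulated genes (median -0.12), 10 antigen presentation genes (median -0.09), 29 ribosomal protein genes (median -0.29) and 14 serine-arginine splicing factors (median -0.16). In the marker lists for fibroblasts, immune cells, endothelium and hair follicle 0 genes were called. TPM scaling moved the median of all genes to 0.05, or to 0.08 without heterozygous culture 1. It turned the sign of the median of the immediate early, wound and stress, and p53 lists with all libraries, and of the antigen presentation, IL-17 receptor, p53, hair follicle and Bcl10-neighbour lists without that culture. With it the calls without heterozygous culture 1 were 63.7% higher, against 57.2% as deposited and 52.6% with median-of-ratios scaling.

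By size, the largest differences without heterozygous culture 1 were partly in genes listed at 0. Hsp25-ps1, a pseudogene copy of a heat-shock gene, was 165 and 79.0 FPKM in knockout, 74.3 in heterozygous culture 1 and listed at 0 in cultures 2 and 3. It was listed at 0 in 3 of the 5 unstimulated libraries as well, and its sharing of reads with near-identical copies makes it uncertain. BC117090 was also listed at 0 in heterozygous cultures 2 and 3 (5.74 and 10.1 FPKM in knockout). Igfbp2, an insulin-like growth factor binding protein, was 25.3 and 14.4 FPKM in knockout, 15.4 in heterozygous culture 1, and 4.37 and 3.42 in cultures 2 and 3 (log2 2.05, adjusted p = 0.0177). The small nucleolar RNA Snora64 was also among the 6 highest. On the lower side, beside Cxcl2, Csf2, Tnf and Gm12543, the zinc finger gene Zfp979 was 0.00952 and 0.0716 FPKM in knockout, 0.0604 in heterozygous culture 1, and 6.16 and 4.54 in cultures 2 and 3. The neuropeptide gene Calcb was 0.253 and 0.195, then 0.264, and 8.98 and 3.88 FPKM. In Zfp979 and Calcb heterozygous culture 1 was at the level of the knockout libraries.

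With the library number set as a term, the genotype difference rests on heterozygous culture 1 against the knockout libraries. Then 2 genes were higher (0.0166%) and 2 lower (0.0166%), 4 in all (0.0332%). The lower ones were Lsm12 and Dusp3. The higher ones, Gm14633 and Gm13827, were low in heterozygous culture 1 alone: Gm14633 was 84.8 and 71.9 FPKM in knockout, 3.82 in heterozygous culture 1, and 96.0 and 81.6 in cultures 2 and 3. The Y-linked genes Ddx3y and Eif2s3y were highest in that culture (6.57 and 3.64 FPKM) and did not pass. Tagln (adjusted p = 0.436) and then Lrrc8d, Hsph1 and Txndc5 (0.593 each) followed on the higher side and did not pass. Of the inflammatory genes, Csf2 was at log2 -0.96 and Cxcl3 at -1.02 in this fit, and neither passed (adjusted p = 1.00 each).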

How the data were processed

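The members and gene lists were chosen with earlier results of these data known. Expression was taken from the FPKM that the authors deposited, with 37991 Ensembl identifiers for 10 libraries. HISAT2, SAMtools, StringTie, DESeq2 and the build mm10 are named, per the submitters' processing notes, without versions or roles. The annotation and the strand setting are not stated. Libraries were made from 100 ng of RNA after poly(A) selection, per the labels' protocols. Symbols and GRCm38 positions came from GENCODE M21 (32938 identifiers matched), promoters from RefSeq. Count models do not suit FPKM and none was used. Depth came from the spacing of low values: in the 5 libraries 53.1% to 56.3% of them were whole multiples of 1 fragment (tolerance 0.05), too few to recover reads, and floors cover counting error only. Genes averaging 1 FPKM or more across the 10 libraries were tested on log2(FPKM + 1) with limma 3.58.1 (R 4.3.3) and its mean-variance trend, 4 group means in 1 fit, two-sided, with Benjamini-Hochberg adjustment over all tested genes and a threshold of 0.05. Folds are on that scale and understate changes of low genes. Alternatives were scaling, filter, pseudocount, weights, blocks, number set and omission of libraries or cultures. Scripts were tested on simulated data with independent libraries and a reduced spread, which does not show how the fits perform on the real libraries. Same-numbered libraries of different genotypes and the same condition correlated at -0.155 to 0.0476 in their deviations from group means and were not taken as pairs. Treated and untreated libraries of the same genotype and number correlated at 0.137 to 0.607. The main fit nevertheless took them as independent, and culture as a random effect (estimated correlation 0.669) was an alternative. Named genes were Bcl10, Malt1 and CARD genes, the calls or smallest p-values per fit, up to 4 calls per list, and the highest genes. Other genes, Sprr2e, Nfkbiz, S100a9 and those kept under omissions, were chosen after their values were seen. Some results are not reported here.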

Additional observations from a re-analysis of the deposited data

How the results depend on the processing

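With all libraries, the counts higher and lower under IL-17A were 3 and 3 without a filter, 0 and 0 with TPM scaling, 0 and 1 with the 5 IL-17A libraries only, 0 and 0 with the replicate number as a fixed block, 2 and 2 with the number set as a term, and 1827 and 1724 with library weights, which did not converge. The replicate block by culture as a random effect kept 0 and 3. Leaving out 1 library gave 0 to 3 and 0 to 7. Without both libraries of knockout culture 1 or 2 they were 11 and 5 or 3 and 3, without heterozygous culture 1, 2 or 3 they were 462 and 346, 0 and 0, or 0 and 0. A test with only the IL-17A libraries could not be made for the results that need unstimulated ones.

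Unstimulated, against 0 and 0 (562 at an unadjusted p under 0.05 in limma), the counts were 2 and 0 without a filter or with the number set, 1368 and 1561 with weights, 0 to 2 and 0 to 2 without 1 library, 10 and 2 or 2 and 1 without knockout culture 1 or 2, 46 and 80 or 1 and 0 without heterozygous culture 1 or 2. The difference between conditions gave 1 gene without a filter, 17 with weights, 5 with the random culture block, 0 to 6 without 1 library, 4 or 5 without knockout culture 1 or 2, and 1 without heterozygous culture 1 or 2.

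Without heterozygous culture 1, the counts of 462 and 346 under IL-17A became 27 and 43 without a filter, 221 and 126 with TPM scaling, 139 and 130 with weights, 29 and 49 with only IL-17A libraries, 2266 and 2392 with the replicate number block, and 8 to 892 and 25 to 810 without 1 more library. They were 24 and 17, 7 and 11, 10 and 8, and 1147 and 1244 without knockout culture 1 or 2 or heterozygous culture 2 or 3. These omissions and all alternatives to this comparison were chosen after seeing the data. The cause of these changes was not tested.

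Of 4736 gene values under alternatives, 4702 kept their direction. With the number set as a term the sign turned for Malt1 (-0.060), mt-Atp6 (-0.15), mt-Atp8 (-0.18), Cdsn (-0.14), Spink5 (-0.054), Alox12b (-0.12), Fosl1 (-0.24), Jun (-0.25), Nrg1 (-0.10), Mmp9 (1.06), Epcam (0.29), Rpsa-ps10 (0.059) and Rab32 (0.017). Gm14633 and Gm13827 turned with weights (-0.039 and -0.15) and without heterozygous culture 1 (-0.18 and -0.31), and without 1 library they were -0.18 to 1.99 and -0.31 to 1.66. Among genes near 0, S100a9 turned with TPM scaling (0.021), with weights (0.033), without knockout culture 1 (0.14) and without heterozygous culture 1 (0.038), and without 1 library it was -0.23 to 0.14. Sprr2e turned with median-of-ratios scaling (-0.0064), with weights (-0.031), without knockout culture 2 (-0.013) and without heterozygous culture 2 (-0.035), and without 1 library it was -0.035 to 0.022. Nfkbiz turned with weights (-0.027) and without heterozygous culture 2 (-0.095), and without 1 library it was -0.095 to 0.12.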
